A study of Mus musculus with 6 samples.

Results

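The 10 genes described here belong to 4 receptor and membrane protein families of myeloid cells, and were measured in the mouse retina among 23420 genes: Cd300a, Cd300lf and Cd300ld of the Cd300 family, Pirb and Gp49a of the leukocyte immunoglobulin-like receptors, Siglec1 and Siglece of the sialic acid-binding lectins, and Ms4a6b, Ms4a6c and Ms4a6d of the Ms4a family. The members were chosen by family with their measured values in the same 6 libraries known, so their levels and fold changes are a description and carry no test. All 10 had a row in the count table. Pirb was found under the older symbol Lilrb3, the other 9 under the symbols used here, and Gp49a is Lilr4b in current annotation.

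Poly-A RNA of whole retina was sequenced in 3 groups of 2 libraries. Control retinas came from mice with no treatment. Retinas of the light group were taken 4 days after exposure of the mice to 10000 lux for 1 h, a model in which bright light injures photoreceptors. Minocycline, a tetracycline antibiotic, was given at 45 mg/kg by daily intraperitoneal injection over 4 days to mice exposed in the same way, with analysis at the same time. The labels name the strain CD1 for all groups and no genetic modification, whereas the paper's methods name the albino strain BALB/cJ, young adult mice of both sexes, a higher light intensity and injections that began before the exposure. Neither source gives a vehicle injection for the control and light groups of the sequencing, so minocycline and the injections cannot be told apart. The libraries of a group are biological replicates by the paper's methods, but how many mice or retinas each held is not given.

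Paired receptors are groups of closely related surface proteins in which some members carry inhibitory tyrosine motifs that recruit phosphatases such as SHP-1, while others pair with adaptors such as DAP12 or the Fc receptor gamma chain and activate the kinase Syk. Cd300 receptors bind lipids such as phosphatidylserine, ceramide or sphingomyelin, Pirb binds MHC class I, and the Siglecs bind sialic acid on glycans. Ms4a6 proteins are multi-pass membrane proteins found on macrophages and microglia, the resident macrophages of the retina. Their function is less well known.

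The libraries held 15205930 to 22856922 counts. A count of 3, used as the limit of detection, corresponded to 0.131 to 0.213 CPM, the usual per-library unit, which is a gene's count relative to the normalized size of its library. The light libraries stood apart from each other, with the summed level of the 10 members at 43.8 CPM in light 1 and 157 CPM in light 2, so values without light 2 are given beside the named genes below where the call or the fold moved. Control 1 also stood apart: it held 77778 counts of Xist against 25 to 188 in the other 5 libraries, and 11 counts over 4 Y-linked genes against 6532 to 12858, so the controls differ in sex and the part of sex in the control level was not tested. The minocycline libraries share a column header and are called A and B.

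The starts of the genes are shown first, as sequence context for the members. RefSeq promoters on GRCm38.p6, from 250 bases before to 50 bases after the annotated start, were found for 8 of the 10 members, all but Siglec1 and Ms4a6d. They were searched on both strands for GAGGAAGT, a sequence of the type bound by the myeloid factor PU.1, for GGAAGT, the shorter ETS type sequence that lies within it, and for an interferon response element type of sequence, a pair of GAAA with 2 bases between them. GAGGAAGT was in 3 of the 8 promoters (Cd300ld, Cd300lf and Pirb) against 3.20% of 32851 promoters. GGAAGT was in 5 of 8, the same 3 and those of Ms4a6b and Ms4a6c, against 23.8%. The interferon type was in 0 of 8 against 3.44%. Of each of the 5 promoters with a match, 80 bases around it are given 5′ to 3′ on the gene's strand, with the matching letters in capitals.
Cd300ld, chr11:114989960-114990039, minus strand: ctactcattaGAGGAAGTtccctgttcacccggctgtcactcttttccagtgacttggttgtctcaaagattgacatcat
Cd300lf, chr11:115133957-115134036, minus strand: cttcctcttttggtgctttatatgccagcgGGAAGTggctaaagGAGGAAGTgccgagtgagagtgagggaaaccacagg
Pirb, chr7:3720460-3720539, minus strand: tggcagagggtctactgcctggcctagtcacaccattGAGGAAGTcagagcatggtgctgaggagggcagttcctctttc
Ms4a6b, chr19:11518457-11518536, plus strand: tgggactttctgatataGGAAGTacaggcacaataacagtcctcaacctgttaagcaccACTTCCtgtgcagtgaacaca
Ms4a6c, chr19:11469335-11469414, plus strand: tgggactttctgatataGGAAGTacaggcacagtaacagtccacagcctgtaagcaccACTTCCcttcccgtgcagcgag
Counting from 0 at the annotated start, the longer match began at position 0 in Cd300lf, at -143 in Cd300ld and at -120 in Pirb. Cd300ld also held a separate GGAAGT at -37, outside the bases shown. The stretches of Ms4a6b and Ms4a6c shared an unbroken run of 32 bases, which held the first GGAAGT of each, and each carried a second match on the other strand. Matches are a description of these letters and say nothing of binding.

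Relative to control, 9 of the 10 members were higher in both light libraries than in both controls, and Siglece was not. Calls came from edgeR's quasi-likelihood test and needed both a Benjamini-Hochberg adjusted p below 0.05 and a fitted log2 difference of 2 or more either way. By that rule 7 of 10 members were called higher, against 2.89% of 14349 genes tested, and 9 of 10 lay higher without overlap, against 30.6% of those genes. Since the members were chosen on these values, nothing is read from these counts. The median fitted log2 fold change of the 10 members was 5.69, or 4.73 with Cd300ld, which had 0 counts in both controls, placed at its lower bound, beside 0.00253 over all genes tested. With the libraries scaled by their totals instead, the median over all genes was 0.238. In bulk retina, more cells of a type and more RNA per cell cannot be told apart.

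**Figure D1:**
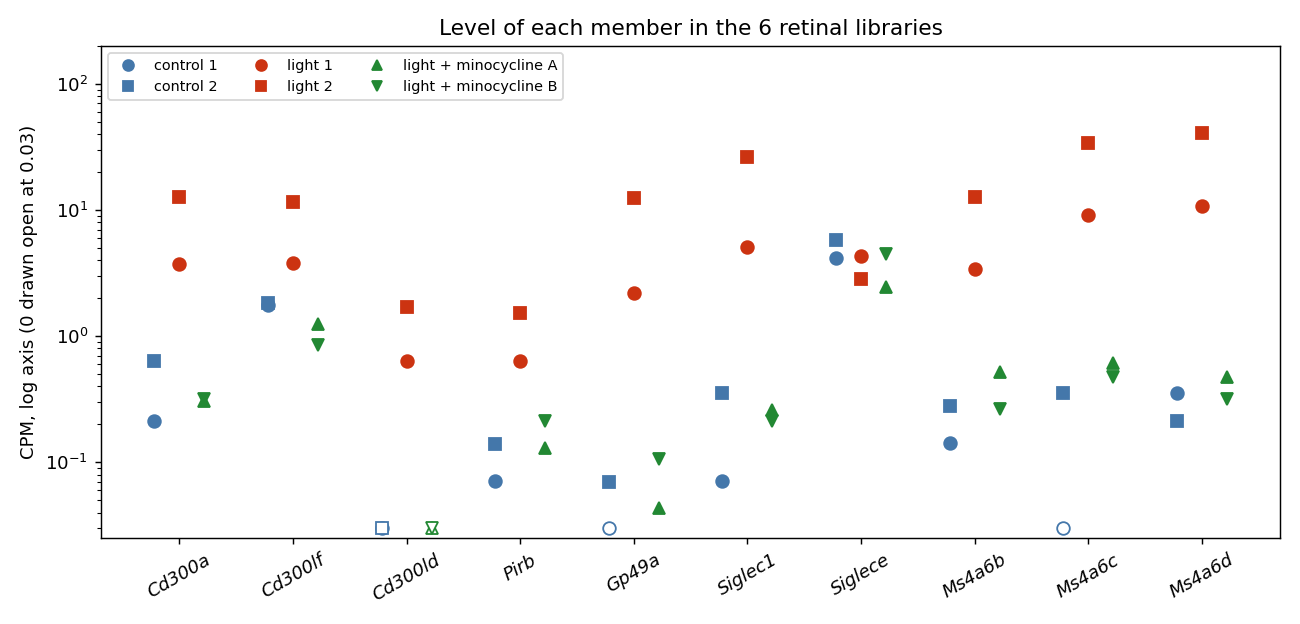
Level in CPM of each member (log axis) in the 2 control, 2 light and 2 light plus minocycline libraries, each point being 1 library and open symbols at the foot marking 0 counts. For 9 members the light libraries lie above the other 4, light 2 above light 1, and for Siglece all 6 lie between 2.44 and 5.77 CPM.

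Cd300lf (chr11:115116214-115133992, minus strand), an inhibitory receptor that binds phosphatidylserine and ceramide, was the Cd300 gene with the most counts in control retina. It had 25 and 26 counts in controls, 65 and 245 in light 1 and light 2, and 29 and 16 in minocycline A and B, or 1.80 ± 0.0381, 7.71 ± 5.54 and 1.055 ± 0.293 CPM (mean ± SD, n = 2). Both light libraries were above the controls and both minocycline libraries below them in CPM. The fitted log2 fold change was 2.10 (SE 0.53) for light against control, the smallest of the 9 higher members. It was -2.84 (SE 0.60) for minocycline against light. Without light 2, these values were 1.07 and -1.835, and Cd300lf was not called. The gene lies over Rab37 on the opposite strand without shared exon bases.

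Cd300a (chr11:114890041-114904654, plus strand), an inhibitory receptor for phosphatidylserine and phosphatidylethanolamine, was near the limit of detection without light damage. Its counts were 3 and 9 in controls, 64 and 267 in light, and 7 and 6 with minocycline, or 0.424 ± 0.297, 8.21 ± 6.32 and 0.311 ± 0.00935 CPM. Control and minocycline libraries overlapped, and the light libraries lay above both. The log2 fold change was 4.26 (SE 0.79) for light against control and -4.68 (SE 0.72) for minocycline against light, or 3.12 and -3.56 without light 2.

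Cd300ld (chr11:114982274-114989922, minus strand), an activating receptor that signals through the Fc receptor gamma chain, was counted in the light libraries alone, with 11 counts in light 1, 36 in light 2 and 0 in the other 4. Against 3 counts, the light level of 1.18 ± 0.754 CPM was at least 5.51-fold higher than control (3.01-fold without light 2, 8.01-fold without light 1). Against minocycline, whose libraries were deeper, it was at least 7.40-fold higher (4.04-fold without light 2, 10.8-fold without light 1).

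The makeup of the Cd300 counts also differed between groups. Over the 6 Cd300 rows with counts, Cd300lf made up 78.1% (exact binomial 95% interval 60.0 to 90.7) and 60.5% (44.4 to 75.0) of the counts in controls. In light it made up 27.0% (21.5 to 33.0) and 26.4% (23.6 to 29.3). With minocycline the share was 50% (36.6 to 63.4) and 57.1% (37.2 to 75.5). The light shares lay below those of the other 4 libraries, and light 1 and light 2 differed by less than the counting error although light 2 held 929 of these counts against 241. These intervals cover counting error only. Cd300a and AF251705, a symbol that the reference tables do not resolve and that is listed here with the Cd300 family, took up most of the remainder in light, with 26.6% and 28.7% for Cd300a and 38.6% and 33.9% for AF251705. Cd300a made up 9.38% and 20.9% in controls and 12.1% and 21.4% with minocycline. AF251705 made up 12.5% and 18.6% in controls and 36.2% and 21.4% with minocycline, so minocycline A lay between the light libraries.

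**Figure D2:**
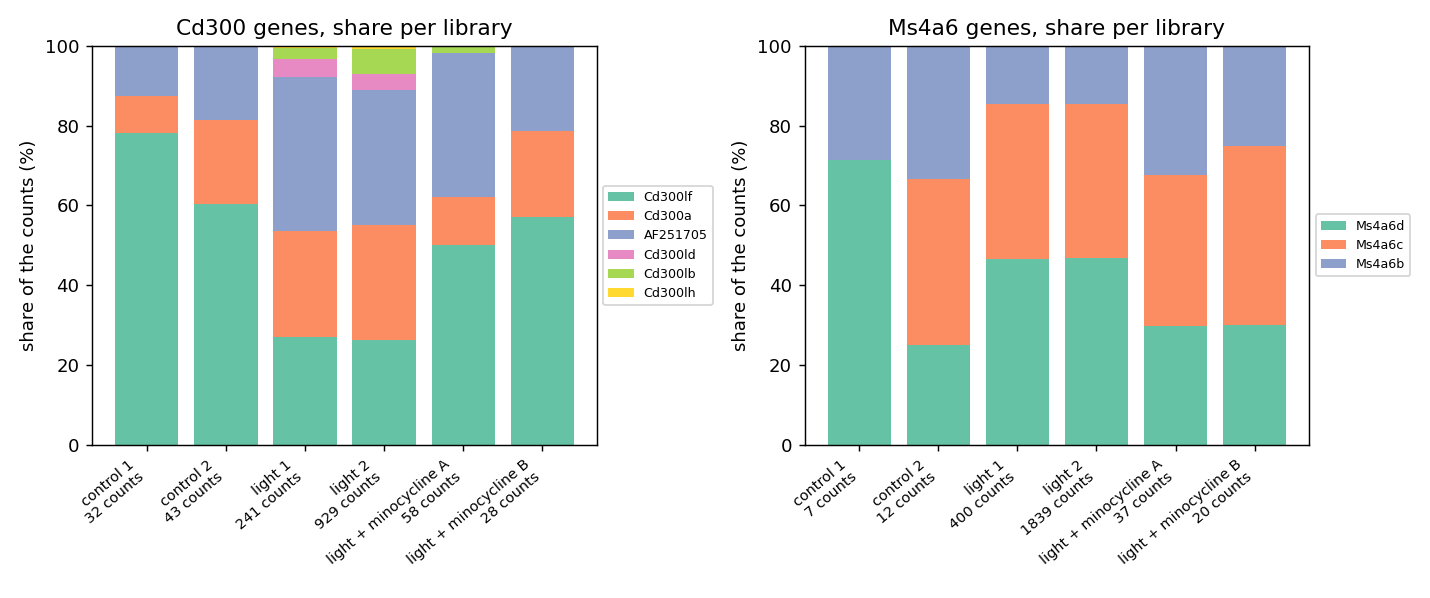
Share of the summed counts of 6 Cd300 rows (left) and 3 Ms4a6 rows (right) taken by each gene in each library, in percent, with the number of counts under each bar. Cd300lf makes up 27.0% and 26.4% in the light libraries, and the Ms4a6 shares of light 1 and light 2 are alike, while bars with few counts are imprecise.

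Among the immunoglobulin-like receptors, Gp49a (chr10:51480632-51486703, plus strand), a relative of Lilrb4, had 0 and 1 counts in controls, 38 and 264 in light and 1 and 2 with minocycline. The pooled count ratio of light to control was 224 (exact 95% interval 39.8 to 8860) and that of light to minocycline 110 (37.4 to 538), intervals that again cover counting error only. With light 1 alone the ratios were 62.7 (10.6 to 2543) and 31.0 (9.82 to 157). The light level was 7.38 ± 7.29 CPM, with light 2 at 5.65 times light 1, the widest gap of the 10 members. The gene shared 24.1% of its 50-base exon windows with Lilrb4 (Lilrb4a in the annotation), so reads of the pair may be split between them, and it shared 122 exon bases with a read-through gene.

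Pirb (chr7:3711409-3720391, minus strand), an inhibitory receptor for MHC class I, was the lowest member in light per length of exon. It had 1 and 2 counts in controls, 11 and 32 in light, and 3 and 4 with minocycline, or 0.106 ± 0.0493, 1.08 ± 0.620 and 0.171 ± 0.0575 CPM. Both light libraries lay above the other 4, and the pooled ratio of light to control was 10.6 (3.40 to 53.5), or 6.05 (1.60 to 33.8) with light 1 alone. The Pira genes and other near copies shared 34.0% of its 50-base windows, so its count is uncertain.

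Of the Siglecs, Siglec1 (chr2:131069220-131086765, minus strand), the sialoadhesin of macrophages, which has no inhibitory motif, had 1 and 5 counts in controls, 87 and 557 in light and 6 and 4 with minocycline. This was 0.212 ± 0.199, 15.8 ± 15.1 and 0.237 ± 0.0348 CPM. Light 2 was 5.20 times light 1. The log2 fold change of 6.18 for light against control carried an SE of 1.43 and was not called (edgeR adjusted p = 0.091). Against light, the minocycline libraries gave -6.00 (SE 1.03). Without light 2 these values were 4.53 and -4.38.

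Siglece (chr7:43651070-43660161, minus strand), an inhibitory receptor of microglia and neutrophils, did not show the pattern of the other 9. Its counts were 59 and 82 in controls, 74 and 60 in light and 56 and 85 with minocycline, or 4.98 ± 1.12, 3.59 ± 1.04 and 3.47 ± 1.46 CPM. The 3 groups overlapped, and light 2, the highest library for the other 9, was 0.659 times light 1. The log2 fold change was -0.48 (SE 0.36) for light against control and -0.03 (SE 0.43) for minocycline against light. Against the mean log2 CPM of 10 pan-myeloid genes such as Csf1r and Spi1, Siglece stood at 0.78 and 0.97 in controls, -1.64 and -3.82 in light, and -0.64 and 0.67 with minocycline. No 50-base window of its exons was shared with another gene. Its RefSeq model, longer than the GENCODE one, overlapped Ctu1 by 74 bases, and Ctu1 had 88 and 95 counts in controls, 117 and 138 in light, and 158 and 135 with minocycline. The part of Ctu1 reads in the Siglece counts was not tested.

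The Ms4a6 genes lie close together on chromosome 19, and Ms4a6d and Ms4a6c held the highest member levels in light. Ms4a6d (chr19:11586604-11604849, minus strand) had 5 and 3 counts in controls, 186 and 859 in light and 11 and 6 with minocycline. Ms4a6c (chr19:11469366-11482192, plus strand) had 0 and 5, then 156 and 713, then 14 and 9. Ms4a6b (chr19:11516512-11531256, plus strand) had 2 and 4, then 58 and 267, then 12 and 5. In light these were 25.8 ± 21.2, 21.5 ± 17.5 and 8.03 ± 6.57 CPM. For all 3 genes both light libraries lay above the other 4. The log2 fold changes for light against control were 6.48 (SE 1.10) for Ms4a6d, 6.87 (SE 1.36, not called, edgeR adjusted p = 0.0702) for Ms4a6c and 5.21 (SE 0.86) for Ms4a6b. For minocycline against light they were -5.96 (SE 0.85), -5.27 (SE 0.79) and -4.29 (SE 0.78). Without light 2 the same genes gave 5.23, 5.63 and 3.95 against control, and -4.73, -4.05 and -3.06 for minocycline against light.

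The 3 Ms4a6 genes stood in nearly equal proportions to each other in the 2 light libraries. Ms4a6d, Ms4a6c and Ms4a6b made up 46.5%, 39.0% and 14.5% of 400 counts in light 1 and 46.7%, 38.8% and 14.5% of 1839 counts in light 2. Light 2 exceeded light 1 by 3.75, 3.72 and 3.74 times in CPM. With minocycline, Ms4a6d made up 29.7% (exact 95% interval 15.9 to 47.0) of 37 counts and 30% (11.9 to 54.3) of 20 counts, and Ms4a6b 32.4% (18.0 to 49.8) and 25% (8.66 to 49.1). In light 1 the intervals were 41.5 to 51.5 for Ms4a6d and 11.2 to 18.3 for Ms4a6b, which overlapped those with minocycline. Light 2, at 44.4 to 49.0 and 12.9 to 16.2, overlapped all of them except that of Ms4a6b in minocycline A. The difference in proportions was not tested. The controls held 7 and 12 counts, too few to set proportions. Ms4a6c shared 51.4% of its 50-base windows with other transcripts, mostly the antisense gene BE692007, and 5.85% with Ms4a6b. Whether strand was used in counting is not given in the sources used here, so reads of the antisense gene cannot be told apart from those of Ms4a6c.

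Per kilobase of exon, the order of the members changed with light. In controls Siglece led at 2.70 CPM per kb, followed by Cd300lf at 0.350 and Ms4a6d at 0.163, and the other 7 were at 0.0894 or below. In light Ms4a6d led at 14.9 CPM per kb, then Ms4a6c at 10.5. Siglec1 at 2.21, Siglece at 1.94, Ms4a6b at 1.79, Cd300a at 1.73, Cd300lf at 1.5 and Gp49a at 1.36 followed within the spread of the 2 libraries, with Cd300ld at 0.445 and Pirb at 0.242 last. With minocycline Siglece led again at 1.88, and Ms4a6c at 0.265, Ms4a6d at 0.230 and Cd300lf at 0.205 came next.

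Minocycline libraries lay below both light libraries for 9 of 10 members, against 28.7% of 14750 genes tested. By edgeR's call rule 0 of 10 members were called lower, against 0.0339% of those genes. In edgeR the unadjusted p was under 0.05 for 9 of 10, against 21.1% of the genes tested, and DESeq2 called 8 lower, against 1.62% of 18453 genes. The members were chosen with these values known, and 8 of the 10 were tested through the light libraries, where they are high. For that reason nothing is read from the member counts of this comparison. Without light 2, edgeR called Ms4a6c, Ms4a6d and Siglec1 lower, against 0.16% of 14983 genes. The median log2 fold change of the members was -4.98, or -4.49 with Cd300ld at its bound, beside 0.00617 over all genes. This comparison shares the light libraries with light against control, so the opposite signs of the values are no separate result. Between minocycline and control, only Cd300lf and Siglece passed the filter on low counts. Neither was called, against 0.134% of 14181 genes called in either direction, with log2 fold changes of -0.72 (SE 0.41) and -0.49 (SE 0.39). Of the other 8, Ms4a6c was higher in both minocycline libraries than in both controls, with 14 and 9 counts against 0 and 5, and 7 overlapped.

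**Figure D3:**
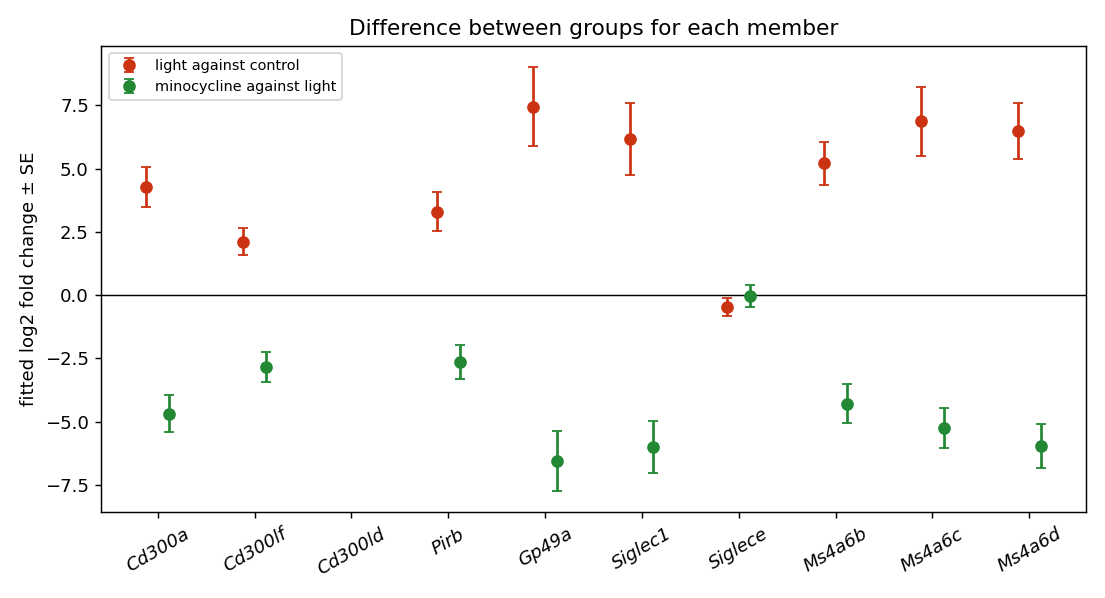
Fitted log2 fold change ± SE of each member for light against control (red) and minocycline against light (green), 2 libraries a group. Siglece lies near 0 in both, and Cd300ld is not drawn because a whole group had 0 counts.

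The call count for light against control rested on having both controls. Without control 1 or without control 2, 0 of 10 members were called, with 3 and 13 genes called higher over the whole table. Without light 2, 6 members were called, against 1.7% of 14528 genes: Ms4a6c and Siglec1 were gained, Cd300lf was lost, and Cd300ld and Pirb did not pass the filter. Without light 1, 9 were called, against 5.0% of 14753 genes. DESeq2 called 8, against 2.54% of 18252 genes, with Ms4a6c and Siglec1 gained and Pirb lost. Without a filter on low counts 5 were called, against 2.64%, with Gp49a and Ms4a6d lost. Of the 10 members, 8 did not pass the filter in minocycline against control and so were tested here through the light libraries, where they are high.

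Other genes of the 4 families were listed by name, not by how they moved. Of 42 such rows, 9 passed the filter for light against control. Of these 9, AF251705, Cd22, Cd33 and Lilrb4 were called higher, against 2.89% of all genes. AF251705, Cd22, Lilrb4 and Ms4a7 passed through the light libraries, where they are high, since these 4 did not pass in minocycline against control, so nothing is read from the count and their values are a description. Lilrb4, an inhibitory receptor next to Gp49a, had 2 and 3 counts in controls and 114 and 470 in light, a pooled ratio of 86.5 (36.8 to 267, or 37.6 with light 1 alone). AF251705 had 4 and 8 in controls and 93 and 315 in light (log2 fold change 4.57, SE 0.63, or 3.66 without light 2). Cd33, an inhibitory Siglec, rose from 7 and 14 to 73 and 270 (3.52, SE 0.63, or 2.51 without light 2, edgeR adjusted p = 0.0195). Cd22, a Siglec best known from B cells, had 2 and 2 in controls and 57 and 229 in light (pooled ratio 52.9, 20.5 to 196, or 23.5 with light 1 alone). Of 7 B cell genes, whose sum was 0.818 to 1.85 CPM, Cd79a, Pax5, Blk and Fcrla had 3 counts or fewer in every library. The calls of family genes rested on having both controls.

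The remaining family genes that passed the filter missed at least 1 of the thresholds. Lair1, an inhibitory collagen receptor, rose from 70 and 117 counts to 195 and 429 (log2 fold change 1.27, SE 0.34, edgeR adjusted p = 0.0439), and gave 0.79 without light 2 (edgeR adjusted p = 0.314). Siglech, a marker of microglia and plasmacytoid dendritic cells, gave 0.30 (SE 0.43, edgeR adjusted p = 0.688). Ms4a7, a macrophage gene, had 0 counts in both controls and 38 and 288 in light, at least 37.3-fold higher (10.4-fold without light 2, 64.1-fold without light 1), with an edgeR adjusted p of 0.177.

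Tmem176a and Tmem176b, distant relatives of the Ms4a genes, rose with light and lay above both controls with minocycline as well. Tmem176b had 180 and 110 counts in controls, 424 and 860 in light and 550 and 468 with minocycline. Its log2 fold change was 1.68 for light against control (edgeR adjusted p = 0.0204), -0.41 for minocycline against light and 1.29 for minocycline against control (edgeR adjusted p = 0.121). Tmem176a gave 1.38 (edgeR adjusted p = 0.0257), -0.07 and 1.34 (edgeR adjusted p = 0.237). Without light 2, light against control gave an edgeR adjusted p of 0.00465 for Tmem176b and 0.0929 for Tmem176a. Of the 9 tested family genes, 0 were called for minocycline against light, where 0.0339% of all genes were called lower. An unadjusted p under 0.05 in edgeR was found for 6 of the 9, against 21.1% of all genes. Since AF251705, Cd22, Lilrb4 and Ms4a7 passed the filter through the light libraries, nothing is read from these counts.

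Among family rows too low for the test, Cd300lb, an activating receptor, had 7 and 58 counts in light and at most 1 elsewhere, at least 7.42-fold higher than control (1.92-fold without light 2). Ms4a4c had 7 and 26 counts in light, 0 and 0 in controls, and 2 and 0 with minocycline. Cd300lh had 1 and 8 counts in light and 0 in the other libraries. Lilra5 had 2 and 6 in light against 0 and 0 in controls, and Siglec5, a symbol that reference synonyms do not resolve, 6 and 10 against 1 and 0. Mag, the Siglec of myelin, had 5 and 0 in controls, 4 and 26 in light, and 8 and 4 with minocycline. Ms4a4d was counted with minocycline alone, at 1 and 7. Ms4a1 and Ms4a2, the family members of B cells and mast cells, had 0 counts throughout.

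Adaptors and kinases downstream of activating receptors were listed by role. Of 14 tested, 12 were called higher in light against control, against 2.89% of all genes, with a list median of 4.02. Of these 14, 8 passed the filter through the light libraries, where they are high, and 7 of those 8 were called, so nothing is read from the count. Fcer1g, the gamma chain that pairs with Cd300ld, rose from 16 and 15 counts to 238 and 840 (log2 fold change 4.61, SE 0.65, or 3.66 without light 2, edgeR adjusted p = 0.0210). Syk, the kinase it recruits, had 3 and 7 in controls and 77 and 292 in light (4.68, SE 0.72, or 3.64 without light 2). Blnk, Lcp2, Vav1 and Btk, which act downstream of it, gave log2 fold changes of 4.51, 4.73, 4.33 and 4.59, or 3.59, 3.74, 3.11 and 3.52 without light 2. Syk, Lcp2 and Btk passed the filter through the light libraries. Tyrobp, which encodes DAP12, had 46 and 54 counts in controls and 732 and 2775 in light (4.63, SE 0.83) and was not called (edgeR adjusted p = 0.0756). Without light 2 it was called, at 3.60 (edgeR adjusted p = 2.69e-15). Hcst was too low to test.

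In a mixed list of phosphatases, adaptors and other signalling regulators, 3 of 12 genes were called higher, against 2.89% of all genes, with a list median of 0.60. Ptpn6, which encodes SHP-1, rose from 21 and 26 counts to 65 and 216 (log2 fold change 2.09, SE 0.49, edgeR adjusted p = 0.0280), and gave 1.19 without light 2 (edgeR adjusted p = 0.217). Ptprc and Dok1 rose by 3.93 and 2.99. Without light 2 Ptprc gave 2.82, and Dok1 was not called without light 2 (2.15, edgeR adjusted p = 0.0958). Ptpn11, which encodes the widely expressed SHP-2, gave -0.05 (SE 0.14, edgeR adjusted p = 0.864), and Inpp5d, which encodes SHIP-1, gave 1.38 (SE 0.45, edgeR adjusted p = 0.116), or 0.59 without light 2. Of 11 other paired and related receptors tested, 4 were called higher, against 2.89% of all genes. These were Cd84, Clec5a, Treml2 and Clec2d, at 5.54, 4.36, 3.88 and 2.74. Of the 11, 4 passed the filter through the light libraries, where they are high. Of those 4, 3 were called (Cd84, Clec5a and Treml2), so nothing is read from the count. Without light 2, Cd84, Clec5a, Treml2 and Clec2d gave 4.54, 3.46, 3.63 and 1.99, the last below the fold threshold. Trem2 at 5.18 and Clec7a at 5.81 were not called (edgeR adjusted p = 0.105 and 0.0918), and without light 2 both were, at 3.80 and 4.44 (edgeR adjusted p = 1.5e-11 and 3.79e-14).

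On the ligand side, 0 of 19 genes of sialic acid synthesis, sialyltransferases and other ligands were called, where 2.89% of all genes were called higher. Of the 19, 7 had an unadjusted p under 0.05 in edgeR, against 28.9% of all genes. By adjusted p alone, the sialyltransferases St6gal1 and St3gal3 rose, by 1.75 (edgeR adjusted p = 0.0202) and 0.76 (edgeR adjusted p = 0.0371), and St3gal1 and St8sia1 fell, with log2 fold changes of -0.92 (edgeR adjusted p = 0.0138) and -0.87 (edgeR adjusted p = 0.0203). Without light 2 none of these 4 passed (edgeR adjusted p = 0.0937, 0.274, 0.107 and 0.150 in the same order). B2m, the light chain of the class I molecules that Pirb binds, had 250 and 183 counts in controls and 1597 and 4925 in light (3.42, SE 0.62), and was not called (edgeR adjusted p = 0.0647). Without light 2 it was called, at 2.61 (edgeR adjusted p = 7.96e-14). Over these 4 lists 19 of 56 genes were called higher in light, against 2.89% of all genes. For minocycline against light 0 of 56 were called, where 0.0339% of all genes were called lower. In that comparison 32 of 56 had an unadjusted p under 0.05 in edgeR, against 21.1% of all genes. Of the 56, 12 passed the filter through the light libraries, and 10 of these 12 were among the 19 called. Without control 1 or without control 2, 0 of the 56 were called for light against control.

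**Figure D4:**
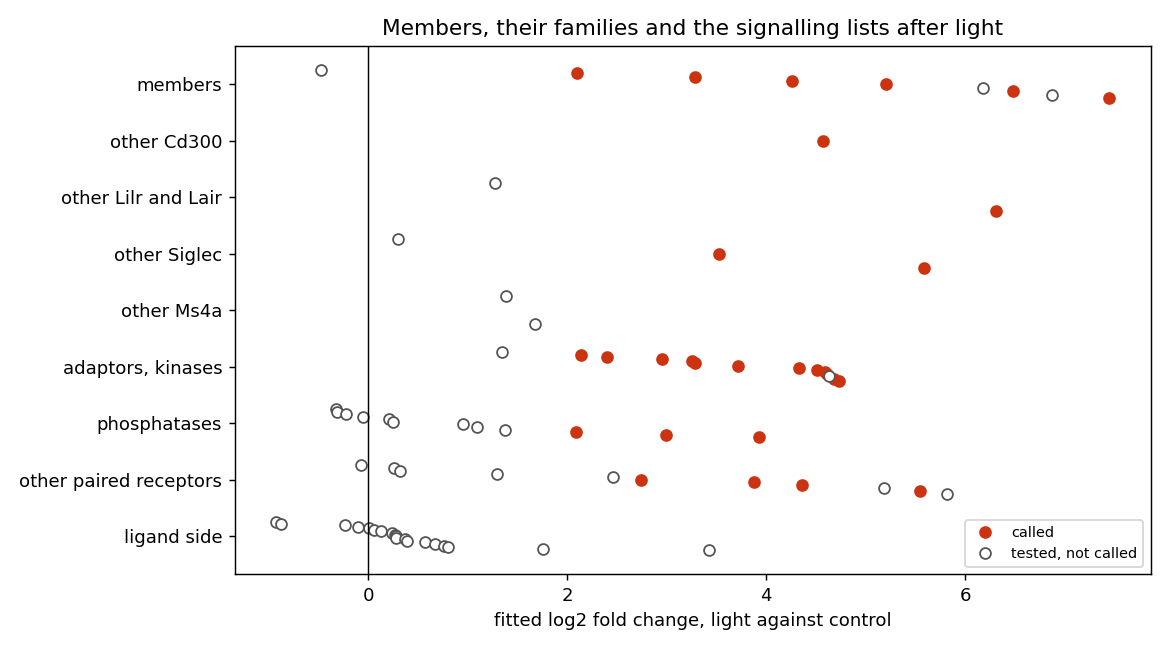
Fitted log2 fold change for light against control of every tested gene in the members, the other genes of their families and the 4 related lists, filled where called and open where not. The members span -0.48 to 7.44, and the ligand side lies between -0.92 and 3.42. Cd300ld and Ms4a7, with 0 counts in both controls, are left out.

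The sums of 2 myeloid marker lists were higher in both light libraries than in the other groups. For light against control, 3 of 10 pan-myeloid and 6 of 10 microglial genes tested were called higher, against 2.89% of all genes. For minocycline against light 0 of either list were called, where 0.0339% of all genes were called lower. The summed level of 10 pan-myeloid genes was 39.9 and 45.3 CPM in controls, 215 and 657 in light, and 73.5 and 44.4 with minocycline, and that of 11 microglial genes was 45.8 and 39.7, 199 and 586, and 69.4 and 40.4. Set against the mean log2 CPM of the pan-myeloid genes, Cd300lf lay lower in light (-1.82 and -1.83) than in controls (-0.41 and -0.63), and stood at -1.53 and -1.60 with minocycline. Ms4a6d lay higher in light (-0.33 and -0.03) than in controls (-2.43 and -3.22) or with minocycline (-2.75 and -2.76). The gap between light 2 and light 1 on this scale was -0.01 for Cd300lf, 0.14 for Cd300a and 0.27, 0.28 and 0.30 for the Ms4a6 genes, 0.76 for Siglec1 and 0.84 for Gp49a. It was -0.32 for Cd300ld, -0.48 for Pirb and -2.18 for Siglece. These ratios were not tested.

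Other cell types were checked by their markers. Border macrophage genes summed to 10.7 and 10.6 CPM in controls, 41.1 and 102 in light, and 16.3 and 12.5 with minocycline, and most of the light sum was Stab1. Without Stab1 the other 7 summed to 7.54 and 6.34, 10.9 and 13.1, and 12.2 and 8.95. Monocyte genes summed to 29.9 and 32.0, 46.6 and 70.5, and 32.9 and 33.4, and mostly to Fn1, without which the other 7 gave 2.13 and 2.89, 3.91 and 4.94, and 2.79 and 6.52. Their part in the member levels was not tested. Of 8 neutrophil genes, 6 (Cxcr2, Ngp, Camp, Retnlg, Mpo and Elane) had 3 counts or fewer in every library, S100a8 had 1 and 0 in controls, 7 and 24 in light, and 4 and 2 with minocycline, and S100a9 had 2 and 0, 6 and 4, and 10 and 2. Of 9 T and natural killer cell genes, 7 were at 3 counts or fewer (Cd3e, Cd3d, Cd3g, Ncr1, Klrb1c, Gzma and Gzmb), while Cd8a had 2 and 1 counts in controls, 9 and 5 in light, and 7 and 0 with minocycline, and Cd4 had at most 5. Of 6 mast cell genes, 4 were at 3 or fewer (Cpa3, Mcpt4, Tpsb2 and Cma1), and Hdc, at 92 and 85, 44 and 42, and 135 and 116, and Kit, at 52 to 134, were not. Of 7 dendritic cell genes, 4 were at 3 or fewer (Xcr1, Cd209a, Clec9a and Ccr9), and Flt3, Zbtb46 and Siglech had 10 to 69 counts in every library. The rod genes, which mark the labelled tissue, summed to 86666 and 67568 CPM in controls, 50599 and 35682 in light, and 74097 and 79656 with minocycline, and the part of this in the CPM of other genes was not tested.

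Across the 6 libraries, the log2 CPM of 9 members had an r of 0.930 to 0.998 with the mean profile of the 10 members, and Siglece of -0.319. That mean contains each of these genes, so the values are a description. The 5 genes outside the lists with the profile most like it were Ctse, Cdk1, Tbxas1, Irf5 and Kcnk13, at r of 0.997 to 0.998 over 6 libraries, which share the high light 2. Of 14599 genes, 488 (3.34%) had r above 0.95, so many genes had such a profile.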

How the data were processed

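Stranded poly-A libraries were aligned by the authors with STAR to mm10 (GRCm38) and assigned to genes in RNA Express. The deposited values are counts per gene. The paper describes the deposit as normalized, but every value was whole and the libraries' median-of-ratios size factors ran from 0.80 to 1.29, so the counts were taken as not normalized. Tool versions, the annotation and the use of strand in counting are not given in the sources used here. No value column was left out (0 unused), and 4791 genes had 0 counts throughout.

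Each pair of groups was fitted on the whole table by edgeR's robust quasi-likelihood F test (version 4.0.16, R 4.3.3) after filterByExpr and TMM, with Benjamini-Hochberg adjustment over all genes tested. The fit was checked on simulated counts. CPM used TMM library sizes, and log2 CPM a prior count of 2. A group with 3 counts or fewer in every library was taken as at the limit of detection. DESeq2 1.42.0, other scalings, no filter, 1 fit over all libraries and each library left out were the alternatives. With a library left out, the lone library of its group is assumed to vary like the other group. Positions and exon lengths came from GENCODE M21, which annotated 203 of 210 listed rows, and promoters from RefSeq.

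Named genes were the members, family genes over 3 counts in a library, called genes of the related lists (at most 5 a direction, with fixed adaptors and phosphatases), and the 5 genes most like the members. Genes called in the related lists beyond that are given as counts. The members and lists were chosen with earlier results of these data known. With 2 libraries a group, p-values measure the spread between these libraries. Planned protein sequence comparisons were not done.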

Additional observations from a re-analysis of the deposited data

How the results depend on the processing

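Of 121 alternative values of the main results, 89 kept their direction and stayed within 1.5 times the count or, for a median, within 1 SD between replicates. The 89 include call counts that were 0 and stayed at 0, which have no direction to keep. For light against control, leaving out 1 library moved the members called from 7 to between 0 and 9, the other family genes called from 4 to between 0 and 8, the related list genes called from 19 to between 0 and 27, and the members' median log2 fold change from 5.69 to between 4.24 and 6.38. The counts of 0 came without control 1 and without control 2. Family calls were 7 with DESeq2 and 7 without the fold threshold. For minocycline against light, where edgeR called 0 in each list, members called were 4 without the filter (1.13% of all genes), 8 with DESeq2 (1.62%) and 8 with 1 fit over 6 libraries (1.48%); family genes 5, 6 and 4; related genes 13, 21 and 16. Leaving out 1 library gave 0 to 8 members, 0 to 6 family genes and 0 to 24 related genes, with 3, 1 and 1 without light 2, and a members' median of -5.63 to -3.56. For minocycline against control, the members' median of -0.60 rested on 2 members. It turned to 0.52 without the filter, 0.51 with DESeq2 and 0.33 in 1 fit, where more members entered, and ranged from -0.77 to 0.63 with 1 library left out, which also gave 0 to 2 related genes called.

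With the replicate block, 8 members were called for light against control, against 3.3% of all genes, without Cd300lf and with Ms4a6c and Siglec1. Same-numbered control and light libraries share only a number (correlation of deviations -0.0107 over 14713 genes). The comparisons with minocycline could not be paired, since its columns have no replicate number. Most members had low counts in the controls and with minocycline, which limits the ratios against those groups.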
